A study of Mus musculus with 15 samples.

Results

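The genes Pou5f1, Sox2 and Nanog, which encode the core transcription factors of pluripotency, were followed through the histone marks around them in 3 mouse cell states. The 3 genes were chosen by name, out of 22350 protein-coding genes on chromosomes 1 to 19 and X. For each gene the annotated span was widened by 120 kb on each side, and all peaks inside that window were read from 6 lists of broad ChIP-seq peaks, 1 for each state and mark. ESCs were J1 mouse embryonic stem cells (strain 129SV) kept in serum with LIF and the 2 inhibitors CHIR99021 and PD0325901, on fibroblast feeders or gelatin. D-EPSCs were ESCs converted to expanded potential stem cells in N2B27-based medium with serum replacement, LIF, CHIR99021, dimethindene maleate and minocycline hydrochloride. L-EPSCs were converted in DMEM/F12 with serum replacement, LIF, CHIR99021, PD0325901, A-419259, XAV939, JNK inhibitor VIII and SB203580. LIF and CHIR99021 were thus present in all 3 media, and the strain was the same. PD0325901, which blocks MEK, was in the ESC and L-EPSC media and not in the D-EPSC medium. The D-EPSCs and L-EPSCs were kept without feeders before ChIP-seq, per the study's methods, and for the ESC samples the choice of feeders or gelatin is not stated. The marks were H3K27ac, an acetylation of active promoters and enhancers, and H3K4me1, a methylation of enhancers and promoter flanks.

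Each mark was profiled in 2 samples per state with 1 input sample per state, 15 samples in all, but there is 1 list for each state and mark, so no value below has a replicate error and no test between states was possible. Peak lists hold positions only, and the depth behind them is unknown. The H3K27ac list of ESCs was far longer than the others, with 64342 peaks over 107.4 Mb, against 32782 peaks over 44.41 Mb in the D-EPSC list and 26966 peaks over 34.29 Mb in the L-EPSC list. The H3K4me1 lists were closer, with 102751 to 107222 peaks over 173.1 to 221.1 Mb. The part of this difference between the lists in the values below was not tested, so values are set beside those over all coding genes or the whole genome. The identity of the cells was checked by H3K27ac within 1 kb of the start sites of marker genes. Of 10 pluripotency markers, 9 carried it in the ESC list, 9 in the D-EPSC list and 8 in the L-EPSC list. Pou5f1, Sox2 and Nanog are among these markers and carried it in every state. That part of the check is not separate from the genes followed here. The other markers that carried it were Zfp42, Klf4, Sall4, Tdgf1 and Fgf4 in every state, and Dppa3 in ESCs and D-EPSCs. Esrrb carried no H3K27ac within 1 kb of its start site in any list. Its window of 120 kb on each side held 62.8 kb in the ESC list, 42.7 kb in the D-EPSC list and 48.3 kb in the L-EPSC list. Of 10 fibroblast markers, Vim and Fn1 carried it in every state and the other 8 in none. Of 4 trophoblast markers only Eomes carried it, in ESCs, and none of 4 primitive endoderm markers did in any state.

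Pou5f1 encodes Oct4, a POU-domain factor that binds an octamer of DNA, and Sox2 encodes an HMG-box factor that binds beside it. The pair occupies composite elements in many enhancers of pluripotent cells, including those of their own genes and of Nanog, which encodes a homeodomain factor. The 3 factors hold each other active, and Pou5f1 and Nanog are silenced as cells leave pluripotency, whereas Sox2 stays on in neural cells. Enhancers carry H3K4me1 whether poised or active and gain H3K27ac when active.

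All 3 genes lie on the plus strand, in mm9 coordinates. Pou5f1 (ENSMUSG00000024406.9) spans chr17:35642982-35647721, and its 244.7 kb window holds 11 coding start sites. Sox2 (ENSMUSG00000074637.3) spans chr3:34548927-34551383, inside the non-coding gene Sox2ot, and is the only coding gene to start in its 242.5 kb window. Nanog (ENSMUSG00000012396.5) spans chr6:122657507-122664651, and its 247.1 kb window holds 6 coding start sites. Peaks carry no strand, so a peak at Sox2 cannot be divided between Sox2 and Sox2ot.

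The 250 bases before each start site are shown first, because H3K27ac lay over or beside them in every state. They were read from the mm9 genome on the plus strand (chr17:35642732-35642981, chr3:34548677-34548926 and chr6:122657257-122657506), and capitals mark matches to TTGTNATGC, a short form of the composite Sox-Oct element, and to the Sox core CATTGT, on either strand.
Pou5f1: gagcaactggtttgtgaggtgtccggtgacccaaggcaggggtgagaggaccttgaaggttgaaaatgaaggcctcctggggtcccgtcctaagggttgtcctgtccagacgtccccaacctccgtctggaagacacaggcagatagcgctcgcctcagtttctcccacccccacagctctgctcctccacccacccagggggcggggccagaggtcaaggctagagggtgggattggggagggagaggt
Sox2: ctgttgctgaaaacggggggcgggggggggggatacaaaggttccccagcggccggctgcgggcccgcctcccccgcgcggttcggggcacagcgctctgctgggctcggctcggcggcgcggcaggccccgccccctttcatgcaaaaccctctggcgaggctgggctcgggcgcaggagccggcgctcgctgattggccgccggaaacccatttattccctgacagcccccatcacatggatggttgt
Nanog: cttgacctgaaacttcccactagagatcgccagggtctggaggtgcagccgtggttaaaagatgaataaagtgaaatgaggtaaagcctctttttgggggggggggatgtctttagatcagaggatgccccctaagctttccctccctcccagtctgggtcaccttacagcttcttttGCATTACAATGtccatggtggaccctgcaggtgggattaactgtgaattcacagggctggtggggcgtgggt
The Nanog promoter held 1 match to TTGTNATGC, on the minus strand 72 bases before the start site (-72), overlapped by 1 match to CATTGT at -67. The Pou5f1 and Sox2 promoters held neither, and none of the 3 held the octamer ATGCAAAT. Over 22345 coding promoters of this length, 0.586% held TTGTNATGC, 9.09% held CATTGT and 1.62% held ATGCAAAT. Base composition differed, with 62% G and C and 7 CG pairs before Pou5f1, 70.8% and 25 before Sox2, and 52% and 3 before Nanog.

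The wider acetylated region that holds each start site, joined over the 3 states, contained the matches to TTGTNATGC listed below. They are shown because they lie in the regions around the start sites whose marks are compared between states. The match at -0.072 kb from Nanog is the promoter match already shown above. Each line gives 60 bases in the direction of the match, with the match in capitals.
Pou5f1 at -1.98 kb (chr17:35640973-35641032, minus strand): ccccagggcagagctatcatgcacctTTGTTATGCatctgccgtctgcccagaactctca
Sox2 at 4.05 kb (chr3:34552948-34553007, plus strand): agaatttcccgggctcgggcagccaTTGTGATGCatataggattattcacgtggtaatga
Nanog at -0.072 kb (chr6:122657410-122657469, minus strand): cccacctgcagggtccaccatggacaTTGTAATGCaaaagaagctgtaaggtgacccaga
Nanog at 1.08 kb (chr6:122658567-122658626, plus strand): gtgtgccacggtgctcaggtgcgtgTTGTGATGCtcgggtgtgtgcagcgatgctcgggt
The match at Pou5f1, in the distal enhancer of that gene, was covered by both marks in all 3 states. The match downstream of Sox2 was covered by H3K27ac in all 3 states and by H3K4me1 in none. Both Nanog matches were covered by H3K27ac in ESCs and L-EPSCs and not in D-EPSCs. H3K4me1 covered the Nanog promoter match in D-EPSCs and L-EPSCs and not in ESCs, and covered the intragenic Nanog match in no state.

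**Figure D1:**
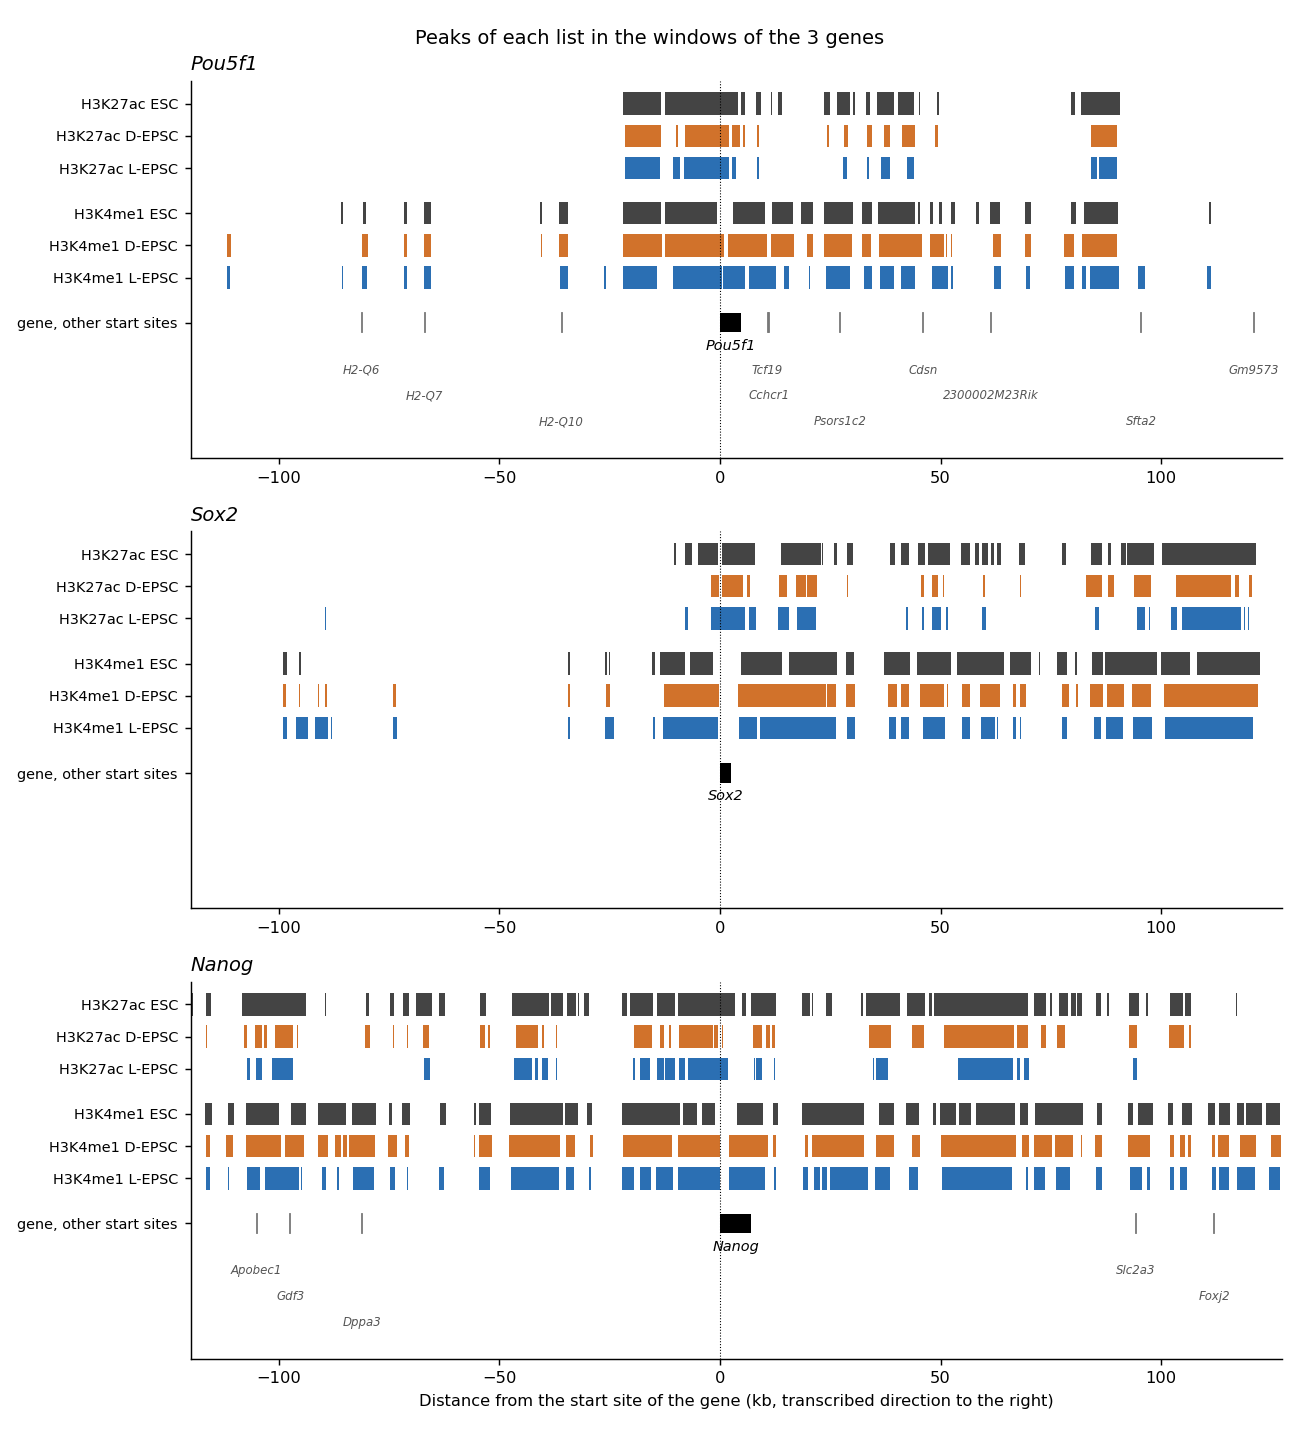
Peaks of the 6 lists in the windows of Pou5f1, Sox2 and Nanog, by distance from the start site in kb, with 1 row per mark and state (ESC grey, D-EPSC orange, L-EPSC blue), the gene as a black bar and other coding start sites as grey ticks. H3K27ac peaks are narrower or missing in both EPSCs at many places where the H3K4me1 rows still hold a peak, and distal acetylation at Sox2 lies almost wholly downstream.

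The question for each gene was how much of its surroundings was acetylated in ESCs and in each EPSC. Both EPSCs had fewer acetylated bases than ESCs in all 3 windows, while the order of the genes, Nanog above Sox2 above Pou5f1, was the same in every state. At Pou5f1, H3K27ac covered 52.1 kb in the ESC list (16 peaks), 34.8 kb in the D-EPSC list (13 peaks) and 31.3 kb in the L-EPSC list (12 peaks). At Sox2 it covered 74.6 kb in the ESC list (24 peaks), 39.6 kb in the D-EPSC list (21 peaks) and 38.8 kb in the L-EPSC list (18 peaks). At Nanog it covered 125 kb in the ESC list (41 peaks), 70.7 kb in the D-EPSC list (35 peaks) and 51.1 kb in the L-EPSC list (24 peaks). The EPSCs were close to each other at Pou5f1 and Sox2, and farther apart at Nanog, where L-EPSCs were the lower.

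As log2 ratios over ESCs, D-EPSCs were at -0.58 for Pou5f1, -0.91 for Sox2 and -0.82 for Nanog, and L-EPSCs at -0.73, -0.94 and -1.29 in that order. A ratio was called at 2-fold or more. In D-EPSCs 0 of the 3 genes were called, beside 63.7% of 18477 windows of coding genes at least 2-fold below ESCs. In L-EPSCs 1 of 3 was called, Nanog, beside 82.2% of 18092 windows. The Nanog ratio was -0.98 in windows of 60 kb and -0.57 in lists of equal covered bases, and in both it was no longer past 2-fold. The median log2 ratio over all windows was -1.29 in the D-EPSC list and -1.85 in the L-EPSC list, so the 3 genes were below ESCs by less than most windows. Of all windows, 67.3% to 78.3% had a lower ratio than the members in the D-EPSC list and 73.3% to 87.9% in the L-EPSC list. In lists reduced to an equal number of peaks the members stayed above the all-window medians, at -0.41, -0.86 and -0.73 beside -0.96 in the D-EPSC list and at -0.55, -0.83 and -1.17 beside -1.46 in the L-EPSC list. The rank turned in lists of equal covered bases, made of the widest peaks, in which the ESC list kept no H3K27ac peak under 5131 bp. There the members' ratios moved to between -0.31 and -0.12 in the D-EPSC list and between -0.57 and -0.12 in the L-EPSC list, below all-window medians of 1.01 and 0.72.

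**Figure D2:**
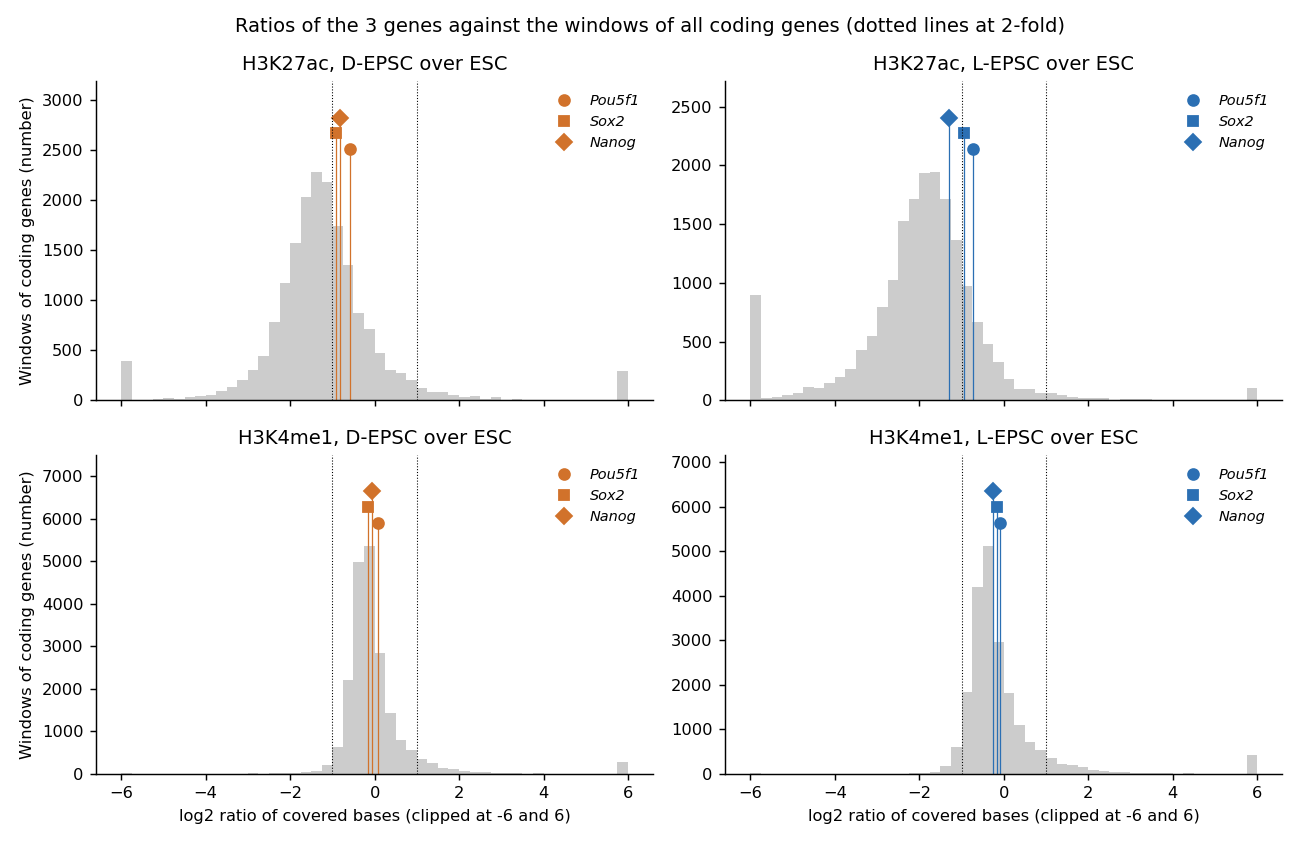
Histograms of the log2 ratio of covered bases, EPSC over ESC, in the windows of all coding genes with at least 1 kb covered, for each mark and EPSC, with Pou5f1 (circle), Sox2 (square) and Nanog (diamond) marked above and dotted lines at 2-fold. The H3K27ac ratios of the 3 genes lie to the right of the peak of the histogram, and their H3K4me1 ratios lie within it near 0.

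In absolute terms the windows of these genes were among the most acetylated in every state. The percentage of all 22350 windows with fewer acetylated bases was 85.8 for Pou5f1, 94.4 for Sox2 and 99.6 for Nanog in ESCs. In D-EPSCs it was 96.8, 97.8 and 99.8, and in L-EPSCs 97.1, 98.6 and 99.4. The median window held 13.5 kb in the ESC list, 5.66 kb in the D-EPSC list and 3.4 kb in the L-EPSC list.

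H3K4me1 differed less between the states than H3K27ac. At Pou5f1 it covered 75 kb in the ESC list, 79.3 kb in the D-EPSC list and 70.6 kb in the L-EPSC list. At Sox2 it covered 103, 92.3 and 92.6 kb in the same order. At Nanog it covered 145, 140 and 121 kb. The log2 ratios over ESCs were 0.08, -0.16 and -0.05 in the D-EPSC list and -0.09, -0.15 and -0.27 in the L-EPSC list, for Pou5f1, Sox2 and Nanog. None of the 3 genes was called in either direction. Of all windows, 1.98% were called below ESCs and 6.6% above in the D-EPSC list, and 4.25% below and 7.92% above in the L-EPSC list.

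**Figure D3:**
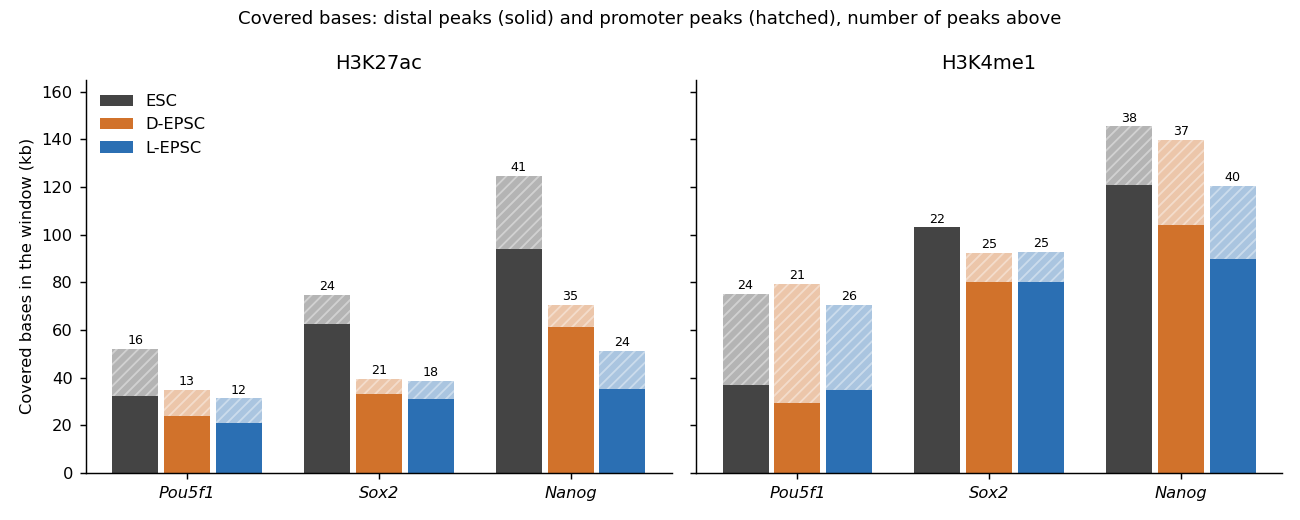
Covered bases in kb in the window of each gene, by mark and state (ESC grey, D-EPSC orange, L-EPSC blue), with distal peaks as the solid part of a bar, promoter peaks as the hatched part and the number of peaks above it. The H3K27ac bars of both EPSCs are lower than that of ESCs at every gene, and the H3K4me1 bars differ little.

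Peaks that reached within 1 kb of a coding start site were then set apart as promoter peaks, and all others counted as distal. Distal H3K27ac covered 32.2, 24 and 20.9 kb at Pou5f1 in ESCs, D-EPSCs and L-EPSCs, 62.6, 33 and 31.1 kb at Sox2, and 94, 61.1 and 35.2 kb at Nanog. The log2 ratios of distal bases in D-EPSCs were -0.43, -0.92 and -0.62, and 0 of 3 were called, beside 71.2% of 17751 windows. In L-EPSCs they were -0.62, -1.01 and -1.42, and Sox2 and Nanog were called, beside 83.5% of 17453 windows. The Sox2 call was at the edge of 2-fold. In lists of equal covered bases the distal ratios changed sign to 0.29 at Pou5f1 and 0.18 at Nanog in D-EPSCs and to 0.25 at Pou5f1 in L-EPSCs, and neither L-EPSC call was kept (-0.22 at Sox2 and -0.45 at Nanog). The split also follows where a peak breaks: a D-EPSC peak of 7727 bp upstream of Nanog ends at -1.63 kb and counts as distal, while the ESC peak there runs across the start site.

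Distal acetylation was placed differently around the 3 genes. At Sox2 nearly all of it lay downstream of the start site, with 60.7 kb downstream and 1.93 kb upstream in the ESC list, 33 and 0 kb in the D-EPSC list, and 30.2 and 0.961 kb in the L-EPSC list. At Nanog it lay on both sides, with 35.5 kb upstream and 58.5 kb downstream in the ESC list, 24.8 and 36.3 kb in the D-EPSC list, and 16 and 19.2 kb in the L-EPSC list. At Pou5f1 the upstream distal bases were 8.74, 8.59 and 9.93 kb in the same order, and the downstream bases were 23.5, 15.4 and 11 kb. These values also follow where peaks break. Upstream, peaks of 593 bp in the D-EPSC list and of 1441 and 341 bp in the L-EPSC list count as distal. They lie in a stretch that the ESC promoter peak of 16500 bp covers. Downstream, peaks of 1801 bp in the D-EPSC list and 937 bp in the L-EPSC list overlap that ESC peak and count as distal.

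At the start sites themselves all 3 genes carried H3K27ac within 1 kb in every state. The acetylated peak over Pou5f1 was 16500 bp wide in the ESC list (-12.4 to 4.12 kb), 9900 bp in the D-EPSC list (-7.86 to 2.04 kb) and 9677 bp in the L-EPSC list (-7.71 to 1.97 kb), and it crossed the first base in all 3 states. At Sox2 the peak was broken over the start site, with a gap of 916 bp in the ESC list and 607 bp in the D-EPSC list, and was unbroken in the L-EPSC list. At Nanog 1 peak of 12998 bp crossed the start site in ESCs and 1 of 9016 bp in L-EPSCs. In D-EPSCs the Nanog start site lay in an acetylation gap of 849 bp, between a peak of 965 bp that ended at -0.404 kb and a peak of 247 bp that began at 0.446 kb. These acetylation gaps at Sox2 and Nanog were all under 1 kb, so joining peaks at most 1 kb apart would close them. The share of other coding genes with such a gap was not counted. Of the 2001 bases centred on the Nanog start site, 844 were acetylated in D-EPSCs and all 2001 in ESCs and L-EPSCs. Over the whole acetylated region of 12998 bp at Nanog, D-EPSCs still covered 8939 bp and L-EPSCs 10475 bp.

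H3K4me1 flanked the start sites in ESCs and came closer to them in the EPSCs. At Pou5f1 the unmethylated gap around the start site was 3462 bp in ESCs, and the first base was covered in D-EPSCs and L-EPSCs. At Sox2 the gap was 6295 bp in the ESC list, 4491 bp in the D-EPSC list and 4669 bp in the L-EPSC list, and the difference lay mainly upstream, where the nearest covered base moved from 1539 bp to 302 and 396 bp from the start site. At Nanog the gap was 5053 bp in the ESC list and 2144 bp in the D-EPSC list, and the first base was covered in the L-EPSC list, by a peak that reached only 9 bases into the gene (0.009 kb). The gap was narrower in both EPSCs at 3 of 3 genes, and so it was at 92.4% of the 5408 coding genes with H3K27ac within 1 kb of the start site in all 3 states. The median gap over those genes was 1900 bp in the ESC list, 1170 bp in the D-EPSC list and 926 bp in the L-EPSC list. Sox2 and Nanog had H3K4me1 within 1 kb of the start site in both EPSCs and not in ESCs, as had 15.4% of those genes. At other annotated start sites of the same genes the gap reached 1023 bp in the D-EPSC list for Pou5f1 and 2016 bp in the L-EPSC list for Nanog.

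**Figure D4:**
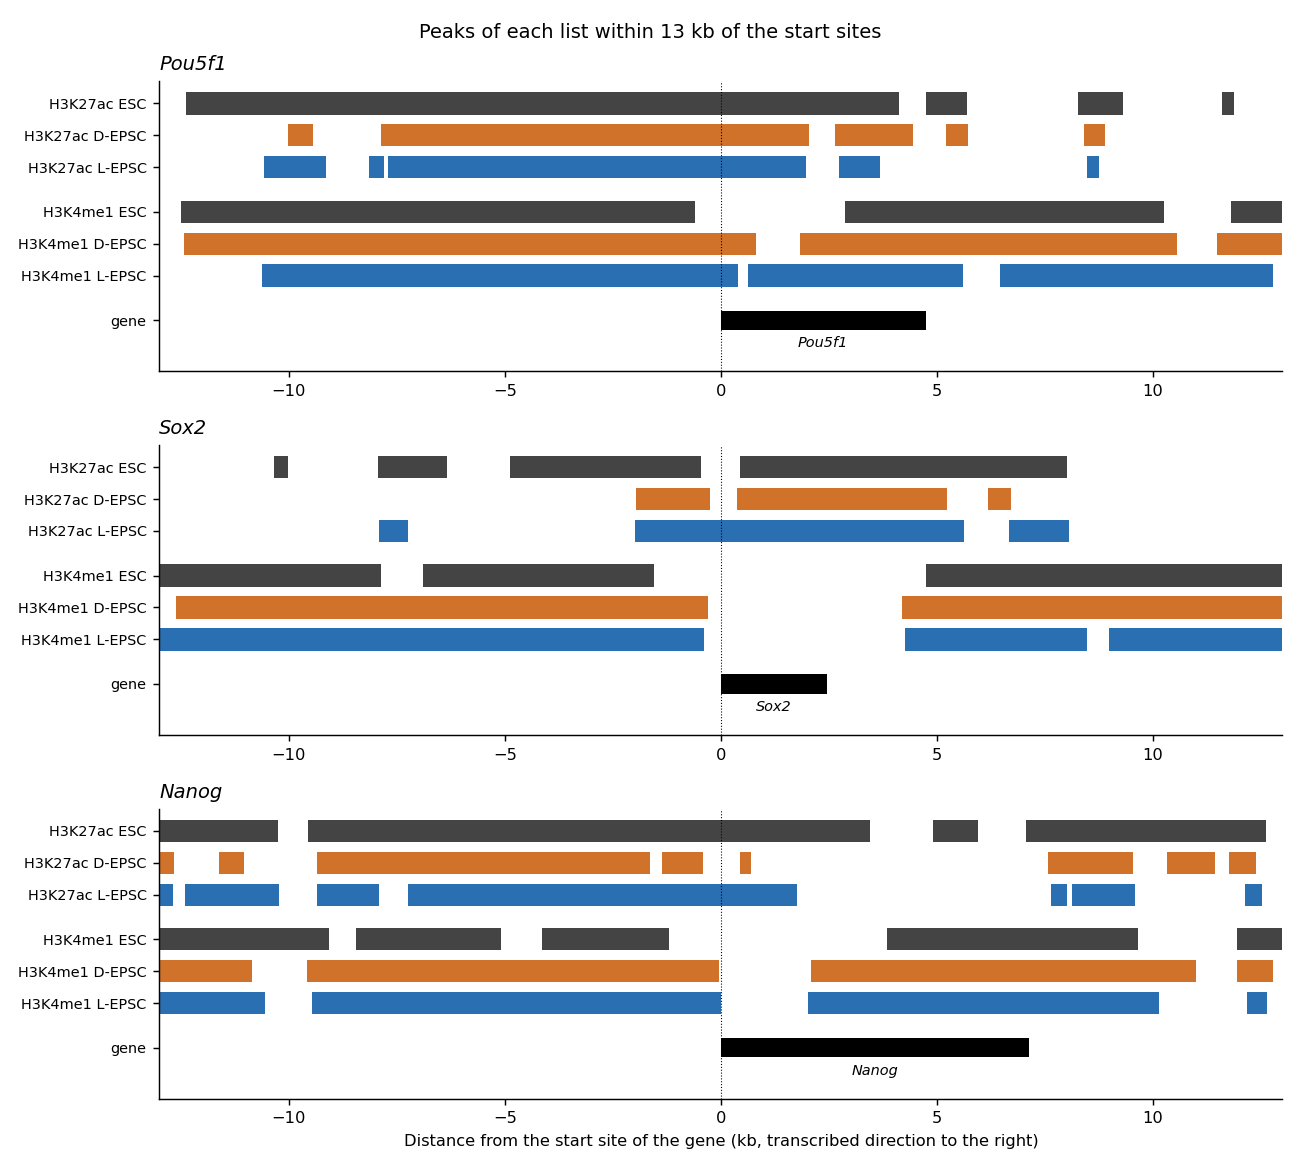
Peaks of the 6 lists within 13 kb of the start sites of Pou5f1, Sox2 and Nanog, by distance from the start site in kb, with 1 row per mark and state and the gene as a black bar. H3K27ac crosses the start site of Nanog in ESCs and L-EPSCs but is interrupted there in D-EPSCs, and the ends of the H3K4me1 peaks sit nearer to the start sites in both EPSCs than in ESCs.

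Enhancers known for these genes were looked up as bands of distance from the start site. The proximal enhancer of Pou5f1 (-1.5 to -0.8 kb), which is used in primed cells, and its distal enhancer (-2.5 to -1.7 kb), which is used in naive cells, were 100% covered by both marks in all 3 states. The band of the Sox2 upstream enhancer SRR1 (-4.5 to -2.5 kb) was 100% acetylated in ESCs and 0% in either EPSC, whereas H3K4me1 covered 100% of it in every state. The band of SRR2 (3 to 5 kb), which holds the match to TTGTNATGC shown above, was 100% acetylated in all 3 states, and H3K4me1 covered 12.2% of it in the ESC list, 40.5% in the D-EPSC list and 36.3% in the L-EPSC list. The band of the Sox2 control region (95 to 115 kb), the distal enhancer cluster on which Sox2 depends in ESCs, was acetylated over 90.8%, 71.6% and 65.8% of its bases in ESCs, D-EPSCs and L-EPSCs, and carried H3K4me1 over 85% to 86.4%. In this band 1 acetylated peak ran from 103.3 to 115.9 kb in the D-EPSC list and 1 from 104.8 to 118.1 kb in the L-EPSC list. The bases of the band without acetylation in the EPSCs thus lay only in its part nearer to Sox2. At Nanog, the band 5 kb upstream was 100% acetylated in all 3 states, and H3K4me1 covered 52.6% of it in ESCs and 100% in both EPSCs. The Nanog band 45 kb upstream (-48 to -42 kb) was acetylated over 87%, 71.8% and 65.9% in the same order, and the band 60 kb downstream (55 to 65 kb) over 100% in all 3. Of the 8 bands, SRR1 was the only one acetylated in ESCs and without any acetylated base in an EPSC. Over the genome, 54.8% of the bases acetylated in any state were acetylated in ESCs only. The ESC peak over SRR1 was 4426 bp wide, and in lists of equal covered bases the ESC list keeps no H3K27ac peak under 5131 bp.

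The acetylated regions were next classed by the states with a peak in them, after overlapping peaks of the 3 lists had been joined. At Pou5f1, 8 of 16 regions were acetylated in all 3 states and 5 in ESCs only. At Sox2 the counts were 8 and 9 of 24, and at Nanog 11 and 18 of 43. The ESC-only counts at Pou5f1, Sox2 and Nanog fell to 3, 5 and 10 with regions joined over 1 kb, to 1, 5 and 8 in lists of equal number of peaks, and to 0 in each window in lists of equal covered bases. Over the whole genome 21.3% of regions were acetylated in all 3 states and 53.6% in ESCs only. No window held a region acetylated in both EPSCs and not in ESCs, a class that made up 2.35% of all regions. At Nanog 11 regions were shared by ESCs and D-EPSCs alone and 1 by ESCs and L-EPSCs alone (25.6% and 2.33%), where the genome had 9.87% and 4.06%. At Pou5f1 these counts were 3 and 0, and at Sox2 4 and 2.

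Regions shared by all 3 states were wider than those of ESCs only. Among distal regions the median width of the shared class was 3900 bp at Pou5f1, 5038 bp at Sox2 and 5370 bp at Nanog, and that of the ESC-only class 832, 916 and 900.5 bp. Over the genome these medians were 3184 and 648 bp. Wide regions have more room to overlap a peak of another list, so the class of a region is not independent of its width.

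The widest shared distal region at Sox2 lay 100 to 121 kb downstream, between genes (chr3:34649143-34670326), and overlaps the Sox2 control region. It was acetylated over 21184 bp in the ESC list, 14227 bp in the D-EPSC list and 15177 bp in the L-EPSC list, with H3K4me1 over 19458, 20693 and 19942 bp. The widest at Nanog lay 48.6 to 70 kb downstream, in an intron of Slc2a3 (chr6:122706089-122727472), and was acetylated over 21335, 18378 and 14108 bp. The widest at Pou5f1 lay 81.8 to 90.6 kb downstream, between genes (chr17:35724789-35733594), and was acetylated over 8806, 5919 and 5424 bp. A region nearly as wide, from -22 to -13.3 kb, differed little between the states, with 8739 bp acetylated in the ESC list, 8001 bp in the D-EPSC list and 8151 bp in the L-EPSC list.

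Among the regions acetylated in ESCs only, the widest distal one at Pou5f1 was 1042 bp (chr17:35722492-35723533), that at Sox2 1938 bp (chr3:34603658-34605595) and that at Nanog 2141 bp (chr6:122622781-122624921), all between genes. Each carried H3K4me1 in all 3 states, over 1037, 731 and 758 bp at Pou5f1, 1938, 1785 and 1824 bp at Sox2, and 2141, 1980 and 1744 bp at Nanog. The widest region shared by ESCs and D-EPSCs alone was in an intron of Slc2a3 (chr6:122699938-122703909), where 3972 bp were acetylated in the ESC list, 2776 bp in the D-EPSC list and none in the L-EPSC list, while H3K4me1 covered 2672, 1791 and 1912 bp. At Sox2 that class was led by a region of 1408 bp in an exon of Sox2ot (chr3:34577693-34579100), and at Pou5f1 by 1285 bp in an exon of Cchcr1 (chr17:35666615-35667899). Regions of ESCs and L-EPSCs alone were led by 1849 bp at Sox2 (chr3:34589886-34591734) and by the only one at Nanog, 950 bp (chr6:122635394-122636343). EPSC-only regions were few and narrow: 1 of 276 bp in L-EPSCs at Sox2 (chr3:34459405-34459680) and 2 in D-EPSCs at Nanog, the wider of 386 bp (chr6:122604910-122605295).

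**Figure D5:**
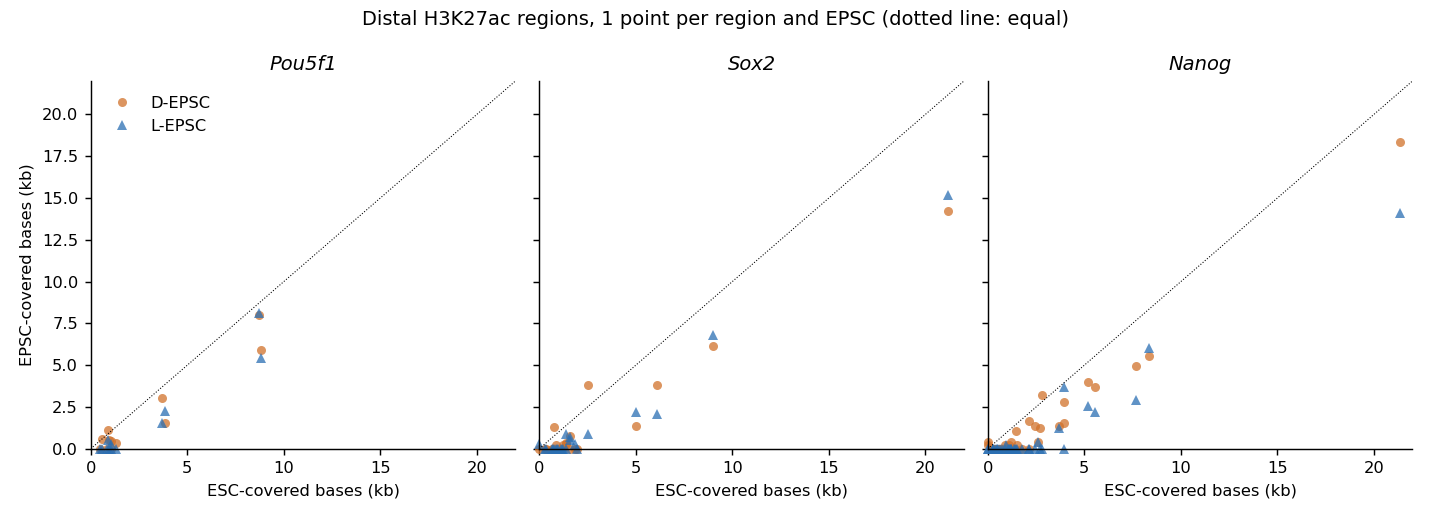
Acetylated bases of each distal H3K27ac region in kb, ESC on the horizontal axis and EPSC on the vertical axis, for the windows of Pou5f1, Sox2 and Nanog, with 1 orange circle (D-EPSC) and 1 blue triangle (L-EPSC) per region and a dotted line at equal values. Nearly all points lie below the line, and the points on the horizontal axis are regions without a peak in that EPSC.

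H3K4me1 regions were mostly shared. At Pou5f1 16 of 23 were present in all 3 states, at Sox2 15 of 21 and at Nanog 28 of 31, against 52.7% over the genome. The widest shared distal one was 8904 bp at Pou5f1 (chr17:35620896-35629799), 26337 bp at Sox2 (chr3:34648870-34675206) and 17130 bp at Nanog (chr6:122707434-122724563). The last 2 overlap the widest acetylated regions of those genes. Those of other classes did not exceed 855 bp at Pou5f1 or 1498 bp at Nanog. At Sox2 a region of 2863 bp in Sox2ot (chr3:34457189-34460051) carried H3K4me1 over 813 bp in the D-EPSC list, 2863 bp in the L-EPSC list and 0 bp in the ESC list, and the 276 bp acetylated in L-EPSCs only lie inside it.

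Base by base, 54.2% of the bases acetylated in any state at Pou5f1 were acetylated in all 3, 37% at Sox2 and 34.3% at Nanog, against 18.2% over the genome. Bases acetylated in ESCs only made up 30.5%, 38.2% and 38%, against 54.8%. New acetylation was scarce. Of the bases acetylated in D-EPSCs, 3.85% at Pou5f1, 6.96% at Sox2 and 2.64% at Nanog were not acetylated in ESCs, against 21.6% over the genome. In L-EPSCs these shares were 0% (0 kb) at Pou5f1, 4.94% at Sox2 and 0.147% (0.075 kb) at Nanog, against 16.4%.

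Bases that were acetylated in ESCs and not in an EPSC mostly carried H3K4me1 in that EPSC. For D-EPSCs, 18.6 kb at Pou5f1 were of this kind and 88.4% carried H3K4me1 in D-EPSCs. At Sox2 it was 83.7% of 37.7 kb and at Nanog 62.2% of 55.8 kb, against 60.9% over the genome. For L-EPSCs, H3K4me1 lay on 64.4% of 20.8 kb at Pou5f1, 75% of 37.8 kb at Sox2 and 54.7% of 73.5 kb at Nanog, against 57.4%. The Pou5f1 and Sox2 shares stood above the genome in both EPSCs and the Nanog shares were close to it. The same bases already differed in ESCs. There H3K4me1 covered 83.8% at Pou5f1, 96.6% at Sox2 and 72.7% at Nanog of the bases not acetylated in D-EPSCs, against 80.6% over the genome. For the bases not acetylated in L-EPSCs it covered 83.6%, 98.6% and 71.8% in ESCs, against 79.9%. Seen from H3K4me1, 61.3% of methylated bases at Pou5f1 were also acetylated in the ESC list, 42.4% in the D-EPSC list and 42.9% in the L-EPSC list. At Sox2 these shares were 62.8%, 37.6% and 36.3%, and at Nanog 63.3%, 44.4% and 38%. The genome had 38.4%, 18.5% and 16.5%.

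By number, the 18 distal regions acetylated in ESCs only at Nanog had H3K4me1 in 15 cases in the ESC list, 12 in the D-EPSC list and 10 in the L-EPSC list. The 9 at Sox2 had it in 9, 8 and 8 cases, and the 3 at Pou5f1 in 3, 2 and 1. Of the 21 distal regions acetylated in all 3 states, 20 carried H3K4me1 in every state. The exception lay at Nanog from -68.9 to -65.2 kb and had H3K4me1 in no state, with H3K27ac over 3684 bp in the ESC list, 1375 bp in the D-EPSC list and 1232 bp in the L-EPSC list. The same shares were not counted over the 10119 shared and 36147 ESC-only distal regions of the genome. These counts therefore do not set the 3 genes apart.

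Those shared distal regions were searched for the motifs used above, on both strands. TTGTNATGC occurred 2 times in 27.7 kb at Pou5f1, 1 time in 48.8 kb at Sox2 and 2 times in 58.4 kb at Nanog. This is 7.23, 2.05 and 3.42 matches per 100 kb, beside 3.25 in all 10119 shared distal regions and 2.76 in the genome, so the counts were too few to set the genes apart. CATTGT occurred 18, 15 and 31 times, or 65.1, 30.7 and 53.1 per 100 kb, beside 56.1 in all shared distal regions and 69.4 in the genome. ATGCAAAT occurred 1, 1 and 3 times, or 3.61, 2.05 and 5.13 per 100 kb, beside 5.79 and 9.15. The 5 matches to TTGTNATGC are shown with the match in capitals, because the states in which acetylation covered them differed.
Pou5f1 at 8.3 kb (chr17:35651257-35651316, plus strand): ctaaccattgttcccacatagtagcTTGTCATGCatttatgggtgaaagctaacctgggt
Pou5f1 at 43.2 kb (chr17:35686177-35686236, minus strand): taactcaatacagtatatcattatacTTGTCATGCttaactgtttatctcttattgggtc
Sox2 at 96.4 kb (chr3:34645313-34645372, plus strand): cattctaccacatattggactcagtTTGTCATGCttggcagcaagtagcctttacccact
Nanog at -68.2 kb (chr6:122589253-122589312, minus strand): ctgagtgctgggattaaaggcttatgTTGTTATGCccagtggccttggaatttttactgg
Nanog at 66.4 kb (chr6:122723848-122723907, minus strand): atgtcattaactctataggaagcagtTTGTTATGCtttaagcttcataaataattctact
All 5 matches were covered by H3K27ac in ESCs. In both EPSCs it covered the matches at 43.2 kb from Pou5f1 and at 66.4 kb from Nanog. The match at 96.4 kb from Sox2 was covered in the D-EPSC list and not in the L-EPSC list, and those at 8.3 kb from Pou5f1 and at -68.2 kb from Nanog in neither EPSC.

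The other genes that start inside the windows showed which of the acetylated regions belong to further promoters. At Nanog, Gdf3 (-97.4 kb), a TGF-beta family ligand of pluripotent cells, had 2001 acetylated bases within 1 kb of its start site in the ESC list, 1515 in the D-EPSC list and 1522 in the L-EPSC list. Apobec1 (-105 kb), a cytidine deaminase, had 2001, 1449 and 1203. Slc2a3 (94.2 kb), a glucose transporter, had 1789, 1321 and 900. Dppa3 (-81.1 kb), a maternal factor of the egg and early embryo also known as Stella, had 146 acetylated bases in the ESC list, 284 in the D-EPSC list and 0 in the L-EPSC list, although all 2001 carried H3K4me1 in every state. Foxj2 (112 kb), a forkhead factor, had no H3K27ac in any state. All 4 acetylated neighbours of Nanog had fewer acetylated bases in L-EPSCs than in ESCs. The share of other coding start sites with fewer was not counted. Over whole windows, 95.8% of 18092 windows of coding genes had fewer in L-EPSCs.

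At Pou5f1, the nearest coding start sites, Tcf19 (10.8 kb) and Cchcr1 (11.1 kb), had 202 and 291 acetylated bases in the ESC list and 0 in both EPSCs, while H3K4me1 covered 461 and 428 bases in the ESC list, 1057 and 1057 in the D-EPSC list and all 2001 in the L-EPSC list. Both acetylation counts come from the same ESC peak of 291 bp (11.6 to 11.9 kb), which a limit of at least 500 bp per peak would drop. Psors1c2 (27.2 kb) had 1532 acetylated bases in the ESC list, 12 in the D-EPSC list and 198 in the L-EPSC list, with H3K4me1 over all 2001 in each state. Cdsn (46.1 kb), which encodes an adhesion protein of the epidermis, had 145 in ESCs and 0 in both EPSCs. The 3 class I histocompatibility genes H2-Q6, H2-Q7 and H2-Q10 and the genes 2300002M23Rik, Sfta2 and Gm9573 had no H3K27ac at the start site in any state. These histocompatibility genes are near-identical copies, so reads there may be split or dropped. Of the 11 coding start sites in the Pou5f1 window, Pou5f1 itself was the only one with all 2001 bases acetylated in the 3 states.

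Other genes of the pluripotency network were set beside the 3 members as a list of 21 genes, with windows of the same kind. In D-EPSCs 14 of 21 were at least 2-fold below ESCs in H3K27ac, beside 63.7% of all windows. Only 1 was at least 2-fold above, beside 4.25% of all windows, and the median log2 ratio was -1.29. In L-EPSCs 17 of the 20 with enough coverage were at least 2-fold below, beside 82.2% of all windows. None was above, beside 1.79% of all windows, and the median was -1.69. These medians are near those of all windows (-1.29 and -1.85), and the medians of the 3 members were -0.82 and -0.94. Some genes of the list, named here after their values were seen, had ratios close to those of the members. Esrrb, an orphan nuclear receptor, was at -0.56 in the D-EPSC list and -0.38 in the L-EPSC list, Zfp42, a zinc finger marker of ESCs, at -0.86 and -0.94, and Klf2, a Krüppel-like factor, at -0.72 and -1.13. Whether the members differ from the rest of the list was not tested. For H3K4me1 1 gene, Tfcp2l1, was at least 2-fold below in the D-EPSC list (-1.05) and none in the L-EPSC list. Of all windows, 1.98% and 4.25% were. The smallest D-EPSC ratios belonged to Tcl1, a cofactor of Akt, at -3.29 (27.2 kb in the ESC list, 2.79 kb in the D-EPSC list, 1.9 kb in the L-EPSC list) and to Tbx3, a T-box factor, at -2.94 (107, 13.9 and 38.2 kb). The largest belonged to Nr0b1, an orphan nuclear receptor, at 1.34, from only 0.586 kb in ESCs and 1.49 kb in D-EPSCs, and to Gbx2, a homeodomain factor, at 0.02 (9.79, 9.95 and 5.76 kb). The Dppa3 window overlaps that of Nanog, so its values are not separate from those of Nanog.

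The coding genes whose windows were most like those of the members were found by the Euclidean distance between log2(covered kb + 1) values over the 6 lists, among 22316 genes. For Pou5f1 they were Tmem220 (distance 0.225), Trim40 (0.27) and Gm5258 (0.309). For Sox2 they were Eif4ebp1 (0.15), Adrb3 (0.176) and Fam134b (0.196). For Nanog they were Slc35b2 (0.222), Nfkbie (0.236) and Hsp90ab1 (0.241). None of the 21 network genes was among these 9, but with only 9 of 22316 genes named this says nothing about the list. The windows of the 9 were not kept apart from each other, so they need not be separate loci. Eif4ebp1, for example, had 74.6 kb of H3K27ac in the ESC list, 38.1 kb in the D-EPSC list and 37.5 kb in the L-EPSC list, against 74.6, 39.6 and 38.8 kb at Sox2.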

How the data were processed

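ChIP-seq for H3K27ac and H3K4me1 had been performed by the authors on 150 bp paired-end libraries. Per the labels, reads were checked with FastQC 0.10.1, trimmed with Trim Galore 0.6.3 and cutadapt, aligned to mm9 with Bowtie2 2.3.5, handled with SAMtools 1.10 and annotated with HOMER; the methods add broad peak calling with MACS against input. The thresholds, and whether replicates were pooled, are not given in the sources used here, and both change which bases count as covered. Each deposited list gives a chromosome, start, end and name per peak, and no height, count or p-value was used here.

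Covered bases were counted in windows of 120 kb on each side of GENCODE M1 gene spans (NCBIM37, the mm9 build). Peaks within 1 kb of a protein-coding start site were promoter peaks. Ratios are log2 of EPSC over ESC bases, called at 2-fold, and the background is all coding genes with at least 1 kb in either list. Union regions join overlapping or touching peaks. Named genes were the 3 members, coding genes starting in the windows, the 3 windows nearest to each member, the widest distal region of each class, and the 2 largest and 2 smallest D-EPSC ratios of a network list. Matches around the start sites, and the Pou5f1 region at -22 kb, were added after the values were seen, as were the region without H3K4me1 and the values of Esrrb, Zfp42 and Klf2. Tfcp2l1 was matched through its older symbol. Enhancer bands come from general knowledge. The members and lists were chosen with earlier results of these data known. The interval code was tested on simulated data. Python 3.11.15, numpy 2.4.6 and matplotlib 3.10.9 were used.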

Additional observations from a re-analysis of the deposited data

Results flagged for a closer look

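At Pou5f1 the EPSCs lay on opposite sides of ESCs in H3K4me1. Over all peaks of the window the log2 ratio over ESCs was 0.081 in D-EPSCs and -0.0876 in L-EPSCs. Over promoter peaks it was 0.393 in the D-EPSC list and -0.0879 in the L-EPSC list. These promoter values follow where peaks break: in D-EPSCs 1 peak of 9742 bp reaches within 1 kb of the start site of Cdsn and counts as promoter, while in ESCs the same stretch holds a distal peak of 8228 bp and a promoter peak of 522 bp. There is 1 list per state, so this difference was not tested, and the ratio over all peaks in L-EPSCs turned to 0.0859 in lists of equal covered bases.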

How the results depend on the processing

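No paired analysis was possible because there is 1 list per state and mark. Alternatives changed 1 choice at a time. Of 126 ratio values under them, 106 stayed on their side of 2-fold and within 1.5-fold of the reported value, 7 were no longer past 2-fold, 3 passed it, 10 moved otherwise, and no called ratio changed sign, while uncalled ratios did at Pou5f1 and Nanog. Lists of equal covered bases moved most. Their ESC list kept 3725 H3K27ac peaks, none under 5131 bp, so narrow ESC peaks are missing by construction. In them the L-EPSC H3K27ac ratio was -0.121 at Pou5f1, -0.177 at Sox2 and -0.568 at Nanog, and the D-EPSC ratio -0.31 at Sox2. Distal ratios in D-EPSCs were 0.288 at Pou5f1, -0.335 at Sox2 and 0.184 at Nanog, and in L-EPSCs 0.251, -0.22 and -0.449. The H3K4me1 ratios were 0.0859 in L-EPSCs at Pou5f1 and 0.0524 in D-EPSCs at Nanog. Windows of 60 kb gave -1.31 for H3K27ac in D-EPSCs at Sox2 (distal -1.56), -0.981 in L-EPSCs at Nanog and 0.0308 for H3K4me1 in D-EPSCs at Nanog. The distal ratio of Sox2 in L-EPSCs was -0.985 in windows of 240 kb, -0.876 in lists of equal number and -0.989 with start sites of all transcripts, and in D-EPSCs -1.02 with peaks of at least 500 bp. For these the cause was not tested.

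The H3K4me1 gap at Pou5f1 reached 0 bp in ESCs and 1023 bp in D-EPSCs over all annotated start sites, and that at Nanog 2016 bp in L-EPSCs. Of 36 H3K4me1 gap values, 33 stayed within 1.5-fold. Gaps in H3K27ac were not examined under the alternatives. Regions acetylated in ESCs only numbered 3 at Pou5f1, 5 at Sox2 and 10 at Nanog when joined over 1 kb, 1, 5 and 8 in lists of equal number, and 0 in each window in lists of equal bases. In the last setting 3, 4 and 7 regions were acetylated in all 3 states, and 10 H3K4me1 regions at Pou5f1 were shared. Read depth, which peak lists do not show, limits every comparison.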
